A study of Mus musculus with 8 samples.

Results

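The genes described here are the 10 genes of classical MHC class I antigen presentation and peptide loading, measured by RNA-seq in MC38 cells, a mouse line labelled as colon adenocarcinoma. They were chosen by gene symbol, and each had 1 row on a primary chromosome in both expression tables, among 23998 genes listed in either table. The 10 genes are H2-K1, H2-D1, B2m, Tap1, Tap2, Tapbp, Tapbpl, Erap1, Nlrc5 and Pdia3. The 8 samples fell into 4 groups of 2 samples, namely control cells labelled wild type and DENR KO cells, each either untreated or treated with IFNγ at 20 ng/ml for 4 h. DENR is a translation re-initiation factor, which the study examined as a regulator of PD-L1. Its RNA-seq of cells treated with IFNγ was made to look for the pathway through which DENR acts. The study describes the samples with IFNγ as independent, without saying what was independent about them. Whether the 2 DENR KO samples of a group came from separate guides or from cultures of 1 line is not given in the sources used here. The p-values therefore speak for these samples only and are not shown to extend to other guides or cultures.

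MHC class I molecules display short peptides from inside the cell to CD8+ T cells. Peptides cut by the proteasome are carried into the endoplasmic reticulum by the TAP transporter, trimmed there, and loaded onto a heavy chain paired with β2-microglobulin with the help of tapasin and its partners. IFNγ signals through JAK kinases to raise most of these genes, with IRF1 and the class I transactivator NLRC5 acting downstream.

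Reads on genes came to between 17369020 and 18403790 per sample, of which the top 10 genes took 4.10% to 4.45%. The targeted gene was measured first. Denr stood at 1447.8 and 1297.1 normalized counts in the untreated control samples against 942.8 and 915.8 in the DENR KO samples, and at 1437.6 and 1401.5 against 945.7 and 957.2 with IFNγ. Normalized counts are reads scaled by a size factor that is the same for every gene of a sample. Both DENR KO groups lay below their controls, at 67.7% of control untreated and 67% with IFNγ. These are RNA levels and do not measure the protein, whose loss in MC38 cells the study checked by western blot. The epithelial markers that the label of the line would call for were absent or near it, since Epcam was at 0 in all 8 samples and the 6 epithelial markers together summed to between 12.7 and 24.6 normalized counts. The 6 leukocyte markers summed to at most 3.1, with Cd3e at 0 in every sample. The 4 fibroblast markers summed to 17924.0 and 18167.6 in control and 16680.3 and 16218.9 in DENR KO samples with IFNγ, and to 19424.9 and 18904.3 against 17451.6 and 18123.5 untreated. Their sum was therefore lower in DENR KO samples under both treatments, and the part of these markers in the results below was not tested.

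In GRCm38 coordinates, 5 of the 10 genes lie within 1.35 Mb of chromosome 17, the mouse MHC region. They are Tapbp (chr17:33915899-33929288, plus strand), H2-K1 (chr17:33996017-34000333, minus strand), Tap1 (chr17:34187553-34197225, plus strand), Tap2 (chr17:34203527-34216321, plus strand) and H2-D1 (chr17:35262730-35267499, plus strand). Tap1 overlaps the start of the immunoproteasome gene Psmb9 by 212 bases on the opposite strand, and Psmb8 lies between Tap1 and Tap2. The other members are B2m (chr2:122147686-122153083) and Pdia3 (chr2:121413775-121438687) on the plus strand of chromosome 2, Tapbpl (chr6:125223933-125231860, minus strand), Erap1 (chr13:74639568-74693201, plus strand) and Nlrc5 (chr8:94434356-94527272, plus strand).

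RefSeq promoter windows of GRCm38.p6, 250 bases before to 50 bases after the transcript start, were matched for 7 of the 10 genes, all but Tap2, Tapbpl and Nlrc5. Both strands were searched for the interferon-stimulated response element (ISRE, GAAA and GAAA with 2 bases between), the gamma-activated site (TTCNNNGAA), the kappa B site (GGG, any 2 bases, TT, any base, CC) and the CCAAT box (CCAAT). ISRE letters were in 2 of the 7 windows and in 3.44% of all 32851 windows, kappa B letters in 3 of 7 and in 4.79% of all, CCAAT in 6 of 7 and in 37.4% of all, and gamma-activated site letters in 0 of 7 and in 8.3% of all. A shortened ISRE (GAA and GAAA with 2 bases between), chosen after the windows had been seen, was in 2 of 7 and in 7.52% of all. Each member was counted by the first of its windows, whereas the shares of all count every window. A gene can have several windows, as H2-K1 does, so the shares are not per gene. The stretches with these letters are shown because they hold the interferon and kappa B letters searched for, and those letters are in capitals, read 5′ to 3′ on the strand of the gene.

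B2m (chr2:122147545-122147574, plus strand, ISRE then kappa B site on the opposite strand): catGAAACTGAAAatgGGAAAGTCCCtttg

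Erap1 (chr13:74639839-74639868, plus strand, ISRE on the opposite strand): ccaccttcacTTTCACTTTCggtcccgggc

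H2-K1 (chr17:34000429-34000458, minus strand, kappa B site then shortened ISRE on the opposite strand): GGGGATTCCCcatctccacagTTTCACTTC

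H2-D1 (chr17:35262923-35262952, plus strand, kappa B site then shortened ISRE on the opposite strand): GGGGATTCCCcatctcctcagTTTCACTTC

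The H2-K1 and H2-D1 stretches had the same base at 29 of 30 positions and differed by A18T, with H2-K1 first and positions counted from the 5′ end of the stretch. Their motif letters were the same. These matches describe the sequence only, since no binding was measured.

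IFNγ was accompanied by higher levels of 9 of the 10 genes in both genotypes, by between 1.4-fold (H2-D1) and 20.2-fold (Tap1) in control cells and between 1.23-fold (H2-D1) and 14.8-fold (Tap1) in DENR KO cells. The exception was Pdia3, at 0.989 times the untreated level in control and 0.948 times in DENR KO cells. These folds were taken across 2 tables that had been normalized separately and are descriptions. In an edgeR test of the recovered reads of all 8 samples on 1 scale, 9 of 10 members rose in control cells, where 8.96% of all tested genes rose, and the 9 also rose in DENR KO cells, where 7.19% did. No member fell in either genotype, against 6.54% of all tested genes in control and 2.98% in DENR KO cells. Samples with and without IFNγ did not overlap, on the higher side, for the 9 genes in either genotype, against 16.6% of all tested genes in control and 15.6% in DENR KO cells. The median log2 ratio of the 10 genes was 1.61 in control and 1.33 in DENR KO cells. On the edgeR scale these medians were 1.68 and 1.41, beside medians over all tested genes of -0.01 and -0.0028.

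**Figure D1:**
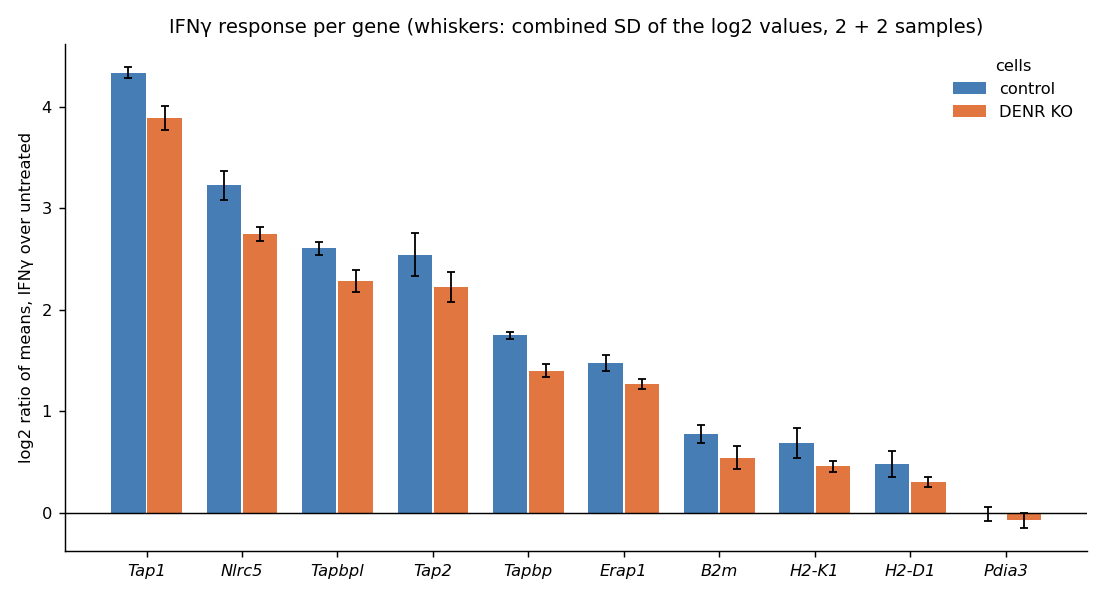
Bars give the log2 ratio of mean normalized counts, IFNγ over untreated, for each gene (horizontal axis) in control (blue) and DENR KO (orange) cells, with whiskers for the combined SD of the log2 values of 2 samples in each of the groups. Tap1 stood highest at 4.34 and 3.89, the orange bars lay below the blue ones for all 10 genes, and Pdia3 lay near 0.

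With IFNγ, all 10 genes had lower means in DENR KO than in control cells, and 5 of them passed the test. Tap1, B2m, Nlrc5, H2-K1 and Tapbp fell to between 70.3% and 87.4% of control, while 2.25% of all 13928 tested genes fell. The other members, H2-D1, Tap2, Tapbpl, Erap1 and Pdia3, did not pass. The 2 DENR KO samples lay below both control samples for 9 of the 10 genes, against 20.8% of all tested genes, and overlapped them for Pdia3. On the higher side stood 0 of the 10 genes and 21.1% of all. The median log2 difference of the members was -0.22 and that of all tested genes -0.0004, with 50.1% of all genes having the lower value in DENR KO cells. The test was limma on log2(normalized count + 1), and a gene was called at a Benjamini-Hochberg adjusted p under 0.05. In bulk libraries, fewer cells that respond and less RNA per cell cannot be told apart. Of the 5 called genes only Tap1 fell by more than 0.5 on the log2 scale, and 1.03% of all tested genes both were called lower and fell by more than that. The count of calls dropped to 3 without replicate 1 of the control cells or without replicate 2 of the DENR KO cells.

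In untreated cells, 0 of the 10 genes passed the limma test, where 0.15% of all 13998 tested genes were called lower and 0.429% higher. At an unadjusted p under 0.05 the count was 1, for Tapbp, and DESeq2 and edgeR on the recovered reads also called 0. Of the 10 genes, 4 had the lower mean in DENR KO cells and 6 the higher one, with a median log2 difference of 0.04 against 0.0019 over all tested genes. The groups were apart for 4 members. B2m was lower in both DENR KO samples, on a side where 19.6% of all genes were apart, and Tapbp, Tapbpl and Nlrc5 were higher, on a side where 20.4% were.

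**Figure D2:**
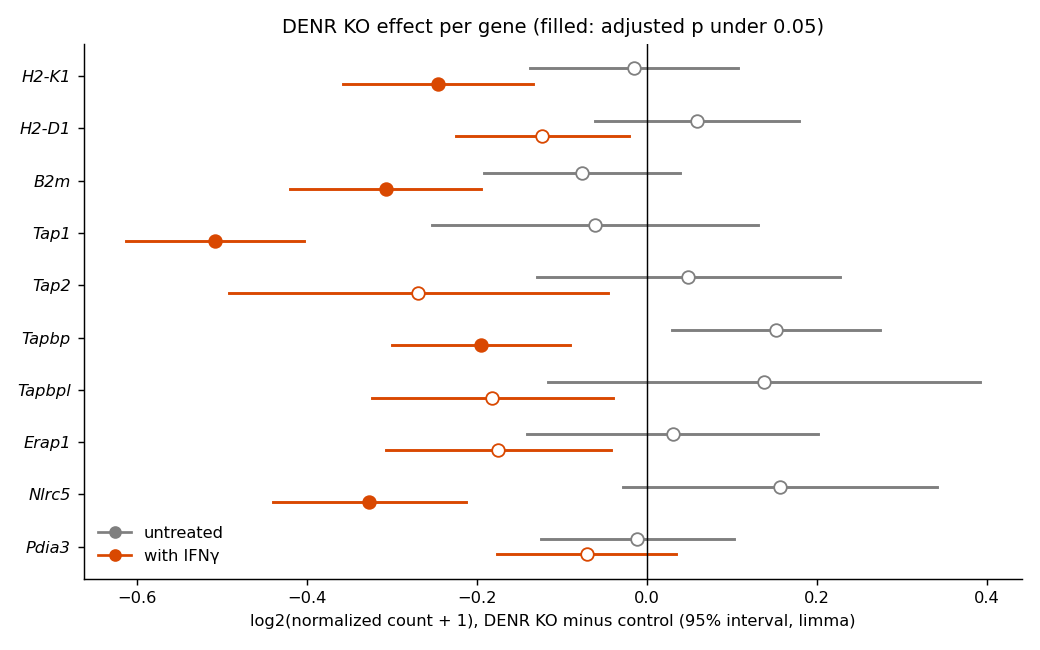
Each point is the difference in log2(normalized count + 1) between DENR KO and control cells, with its 95% interval from limma (horizontal axis), for each gene (vertical axis), untreated in grey and with IFNγ in orange, filled where the adjusted p was under 0.05. The 5 filled points are all orange and lie between -0.51 and -0.20, and the grey points lie between -0.08 and 0.16.

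Whether the DENR KO effect itself changed with IFNγ was tested by the interaction of genotype and treatment, fitted to all 8 samples. All 10 estimates were negative, as were 49.7% of the 13998 genes tested, with a median of -0.27 against 0.001 over all of them. Of the 10 members, 3 passed limma's test, Nlrc5, Tap1 and Tapbp. Of all genes tested, 0.429% were called on this lower side and 0.0214% on the higher one. The other 7 members did not pass, although 9 of the 10 had an unadjusted p under 0.05, a cutoff for which no share of all tested genes is given. The 3 calls rested on all 8 samples, since the count was 0 without either control sample treated with IFNγ and 1 or 2 without any other sample. Both DESeq2 and edgeR on the recovered reads called 3 members as well.

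H2-K1 and H2-D1 encode the classical heavy chains, which hold the peptide. H2-K1 stood at 8795.4 and 7911.1 normalized counts in untreated control and 8393.7 and 8114.5 in untreated DENR KO samples. With IFNγ it stood at 14125.7 and 12768.2 in control and 11548.3 and 11105.9 in DENR KO samples. The untreated genotypes overlapped, whereas with IFNγ both DENR KO samples were the lower ones. H2-K1 fell to 84.2% of control with IFNγ, a log2 difference of -0.25 (SE 0.054, n = 2 and 2, limma with Benjamini-Hochberg adjusted p = 0.0074). The limma call was lost without replicate 1 of the control cells (log2 -0.17, Benjamini-Hochberg adjusted p = 0.16) or without replicate 2 of the DENR KO cells (log2 -0.22, adjusted p = 0.065). Its untreated log2 difference was -0.02 with a 95% interval of -0.14 to 0.11, and the interaction estimate of -0.23 did not pass (limma, Benjamini-Hochberg adjusted p = 0.52).

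H2-D1 stood at 13944.7 and 12496.4 in untreated control and 13932.6 and 13572.9 in untreated DENR KO samples. With IFNγ it reached 19014.2 and 17925.0 in control and 17314.1 and 16604.7 in DENR KO samples. The latter groups did not overlap, but the difference was small, at 91.8% of control. The log2 difference of -0.12 (95% interval -0.23 to -0.02) did not pass limma's test after Benjamini-Hochberg adjustment (adjusted p = 0.23). H2-K1 and H2-D1 are related genes, and how reads that match both were divided between them is not given in the sources used here. The likeness of their transcripts was not measured. Within a sample, the H2-K1 to H2-D1 ratio of reads per kilobase was 0.624 and 0.626 in untreated control, 0.596 and 0.591 in untreated DENR KO, 0.735 and 0.704 in control with IFNγ and 0.66 and 0.661 in DENR KO with IFNγ. DENR KO samples thus had the lower ratio under both treatments, with no overlap.

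B2m encodes β2-microglobulin, the light chain that every class I heavy chain pairs with. It stood at 11139.6 and 11156.4 normalized counts in untreated control and 10909.1 and 10247.8 in untreated DENR KO samples. After IFNγ the values were 18248.8 and 19860.1 in control and 14713.1 and 16083.1 in DENR KO samples. The DENR KO samples were lower under both treatments, by a small margin untreated and by a larger one with IFNγ. B2m fell to 80.8% of control with IFNγ (log2 -0.31, SE 0.054, limma with Benjamini-Hochberg adjusted p = 0.00091), a call that held whichever of the 4 samples was left out. Untreated, the log2 difference was -0.08 (95% interval -0.19 to 0.04). The difference between treatments, -0.23, did not pass limma's test (Benjamini-Hochberg adjusted p = 0.46).

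Tap1 and Tap2 encode the paired subunits of the TAP peptide transporter. Tap1 stood at 587.6 and 615.4 in untreated control and 543.5 and 611.2 in untreated DENR KO samples. In the treated groups it reached 12344.9 and 12002.0 in control and at 8536.0 and 8574.3 in DENR KO samples. The untreated samples overlapped, and with IFNγ the 2 DENR KO samples were close to one another and far below control. Tap1 fell to 70.3% of control, the largest fall among the 10 genes (log2 -0.51, SE 0.050, limma with Benjamini-Hochberg adjusted p = 2.7e-07), whichever sample was left out. With IFNγ the mean was higher by 11572.0 normalized counts in control cells and by 7977.8 in DENR KO cells. These amounts cross tables that had been normalized separately, so they are descriptions, and the genes were not ranked by them. Its interaction estimate was -0.45 (SE 0.090, limma with Benjamini-Hochberg adjusted p = 0.016). That call was lost in 5 of the 8 limma fits that left out 1 sample, namely each of the 4 samples with IFNγ and replicate 2 of the untreated DENR KO cells, with estimates of -0.47 to -0.36 and Benjamini-Hochberg adjusted p of 0.061 to 0.2. Psmb9, which overlaps Tap1 on the opposite strand, had at most 2484 reads in a sample.

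Tap2 stood at 758.6 and 703.1 in untreated control and 726.9 and 785.1 in untreated DENR KO samples. With IFNγ it stood at 4674.4 and 3858.0 in control and 3749.4 and 3312.9 in DENR KO samples. The control samples with IFNγ lay far apart, with an SD of 577 around a mean of 4266.2, and both were above the DENR KO samples. The log2 difference of -0.27 (95% interval -0.49 to -0.05) did not pass (limma with Benjamini-Hochberg adjusted p = 0.25). It did pass without replicate 2 of the control cells (log2 -0.41, limma with Benjamini-Hochberg adjusted p = 2.4e-05) or without replicate 1 of the DENR KO cells (log2 -0.36, adjusted p = 0.00068).

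Per kilobase within a sample, Tap1 stood below Tap2 without the cytokine and above it with IFNγ. The Tap1 to Tap2 ratio was 0.535 and 0.604 in untreated control, 0.516 and 0.538 in untreated DENR KO, 1.82 and 2.15 in control with IFNγ and 1.57 and 1.79 in DENR KO with IFNγ. Treated and untreated samples were apart in both genotypes. With IFNγ the DENR KO samples had the lower ratios without overlap, by a difference of means smaller than the range within control. The Tapbp to Tap1 ratio went the other way, from 11.4 and 10.7 to 1.83 and 1.84 in control and from 13.4 and 12.2 to 2.35 and 2.2 in DENR KO cells.

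**Figure D3:**
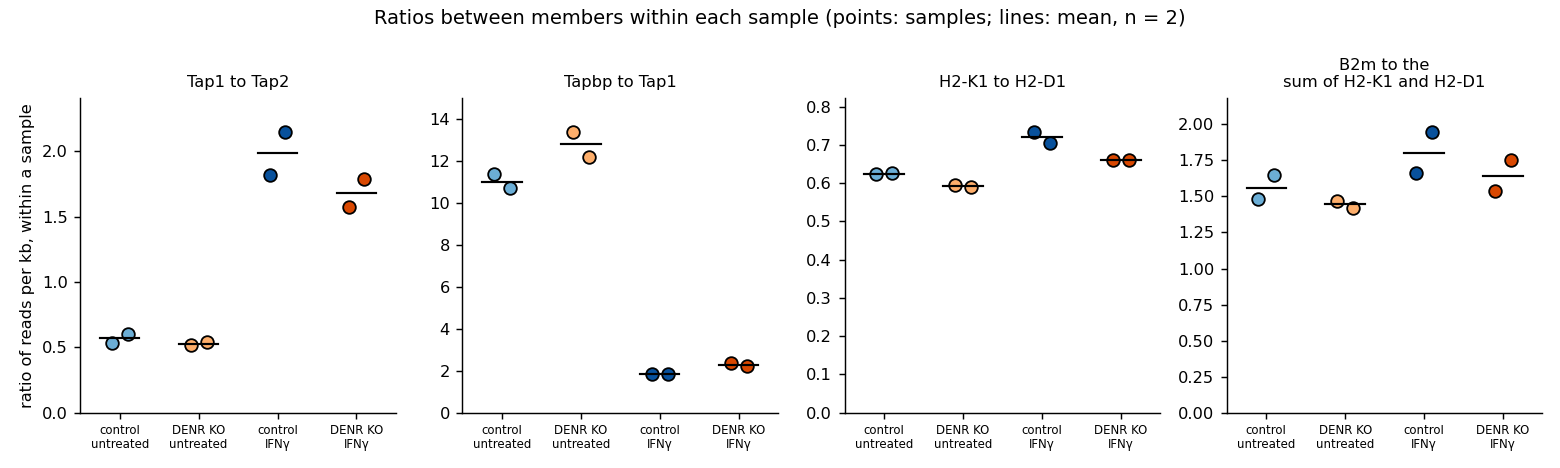
Points are the ratios of reads per kilobase between members within each sample, with lines for the mean of 2 samples, in the 4 groups on the horizontal axis. Tap1 to Tap2 rises above 1 and Tapbp to Tap1 drops below 3 with IFNγ in both genotypes, and the 2 ratios on the right differ less between groups.

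Tapbp encodes tapasin, which bridges TAP and the empty class I molecule. It stood at 4046.6 and 3945.4 in untreated control and at 4395.0 and 4485.7 in untreated DENR KO samples. Treated samples held 13582.6 and 13258.5 in control and 12086.6 and 11371.6 in DENR KO samples. The DENR KO samples were thus the higher ones untreated and the lower ones with IFNγ, with no overlap in either case. With IFNγ Tapbp fell to 87.4% of control (log2 -0.20, SE 0.051, limma with Benjamini-Hochberg adjusted p = 0.027). The limma call was lost without either control sample or without replicate 2 of the DENR KO cells (log2 -0.21 to -0.15, Benjamini-Hochberg adjusted p of 0.058 to 0.33). Untreated, the log2 difference of 0.15 (95% interval 0.03 to 0.27) did not pass (limma with Benjamini-Hochberg adjusted p = 0.39). The interaction estimate was -0.35 (SE 0.074, limma with Benjamini-Hochberg adjusted p = 0.029), and it was lost in 6 of 8 fits that left out 1 sample, all but those without replicate 1 of the DENR KO cells with IFNγ and replicate 1 of the untreated control cells. Tapbp shares 3421 bases on the same strand with Zbtb22, which had at most 675 reads.

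Tapbpl encodes TAPBPR, a tapasin relative that edits the bound peptide. It stood at 259.6 and 251.1 in untreated control and 266.8 and 295.8 in untreated DENR KO samples. With the cytokine it came to 1599.5 and 1514.2 in control and 1389.5 and 1354.7 in DENR KO samples. Both DENR KO samples were the higher ones untreated, as for 20.4% of all tested genes, and the lower ones with IFNγ, as for 20.8%. Neither difference passed. The log2 differences were 0.14 untreated (95% interval -0.12 to 0.39) and -0.18 with IFNγ (95% interval -0.32 to -0.04, limma with Benjamini-Hochberg adjusted p = 0.19). Tapbpl lies wholly within an overlap of 7928 bases with Vamp1 on the opposite strand, which had at most 190 reads.

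Pdia3 encodes ERp57, the thiol oxidoreductase of the peptide-loading complex, which also folds many other glycoproteins. It stood at 15421.6 and 15115.1 in untreated control, 15628.8 and 14675.4 in untreated DENR KO, 14601.1 and 15600.3 in control with IFNγ and 14105.9 and 14636.6 in DENR KO samples with IFNγ. The genotypes overlapped under both treatments. Its log2 difference with IFNγ was -0.07 (95% interval -0.18 to 0.03) and untreated -0.01 (95% interval -0.13 to 0.10). The log2 response to IFNγ was -0.02 in control and -0.08 in DENR KO cells on the deposited scale and turned to 0.06 and 0.001 on the edgeR scale, where it did not pass (edgeR quasi-likelihood test with Benjamini-Hochberg adjusted p = 0.56 and 0.997).

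Erap1 encodes the aminopeptidase that trims peptides inside the endoplasmic reticulum. It stood at 763.6 and 812.3 in untreated control and 819.2 and 790.0 in untreated DENR KO samples. IFNγ-treated cells had 2134.3 and 2240.1 in control and 1902.2 and 1972.9 in DENR KO samples. The treated groups did not overlap, with DENR KO at 88.6% of control. The log2 difference of -0.17 (95% interval -0.31 to -0.04) did not pass (limma with Benjamini-Hochberg adjusted p = 0.17). Erap1 overlaps 834 bases of Cast on the opposite strand, which had up to 4818 reads, more than Erap1 itself.

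Nlrc5 encodes the transactivator that is recruited to class I promoters. It stood at 626.8 and 718.5 in untreated control and 770.1 and 727.1 in untreated DENR KO samples. With IFNγ it stood at 6406.0 and 6216.0 in control and 4946.0 and 5117.8 in DENR KO samples. DENR KO samples were the higher ones untreated, by a narrow margin, and the lower ones with IFNγ. Nlrc5 fell to 79.7% of control with IFNγ (log2 -0.33, SE 0.055, limma with Benjamini-Hochberg adjusted p = 0.00046), whichever sample was left out. Untreated, the log2 difference of 0.16 (95% interval -0.03 to 0.34) did not pass (limma with Benjamini-Hochberg adjusted p = 0.62). The difference between treatments was -0.48 (SE 0.096, limma with Benjamini-Hochberg adjusted p = 0.015). It was lost in 5 of 8 limma fits, those without either control sample or replicate 1 of the DENR KO cells with IFNγ, replicate 1 of the untreated DENR KO cells or replicate 1 of the untreated control cells, with Benjamini-Hochberg adjusted p of 0.052 to 0.16.

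**Figure D4:**
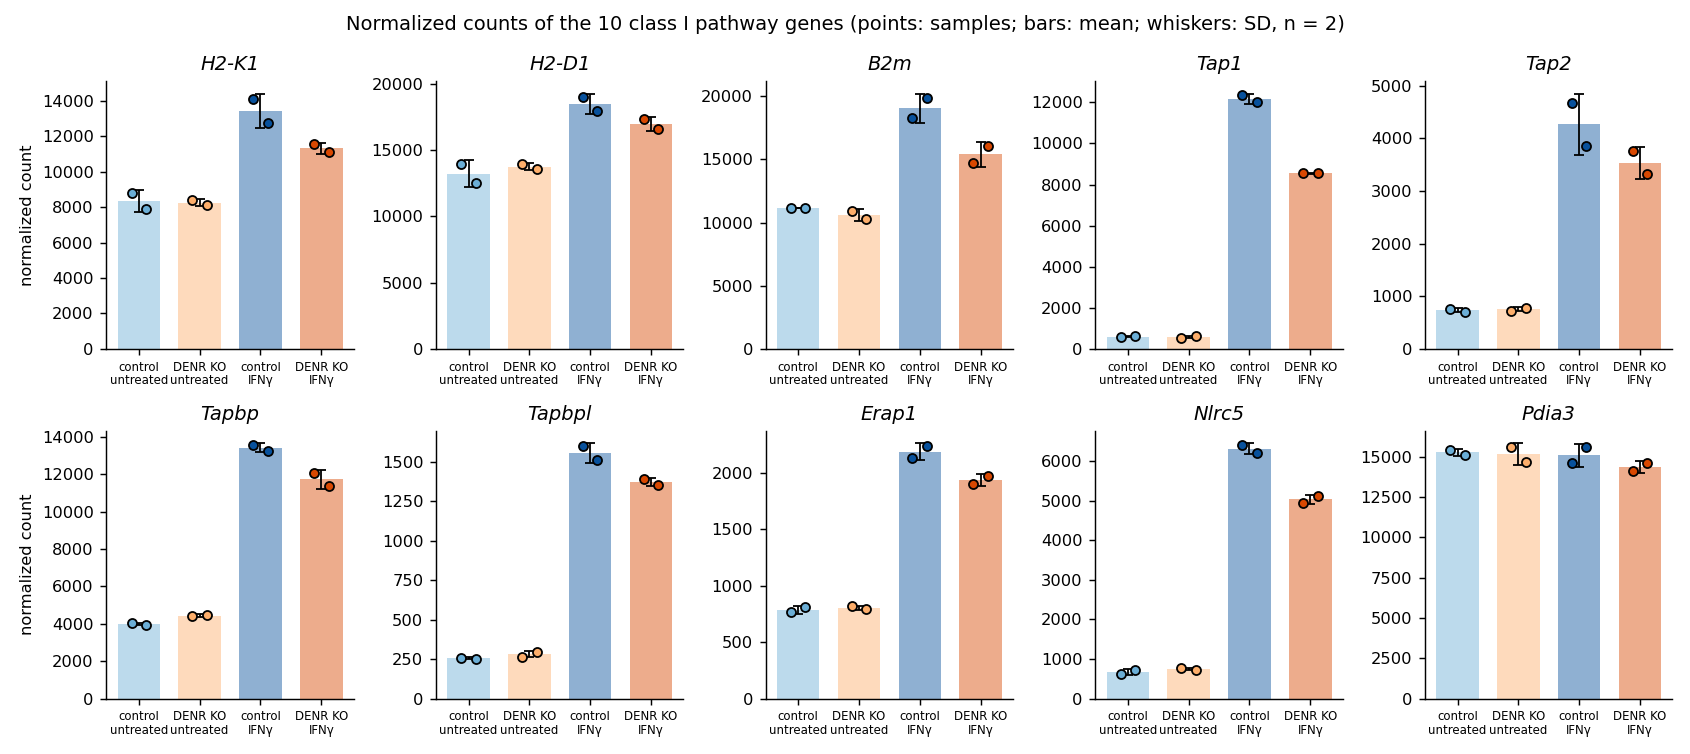
Normalized counts (vertical axes, from 0) of each of the 10 genes in the 4 groups (horizontal axes). Points are samples, bars are means and whiskers are SDs of 2 samples. Tap1 stands at 601.5 (control) and 577.3 (DENR KO) untreated and at 12173.4 (control) and 8555.2 (DENR KO) with IFNγ, while Pdia3 is at about the same height in every group.

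Ranked by reads per kilobase of gene length, scaled to library size (RPKM, computed from the recovered reads), B2m had the highest level of the 10 genes in every group, at 721 in untreated control, 681 in untreated DENR KO, 1242.9 in control with IFNγ and 1012.8 in DENR KO with IFNγ. H2-D1 came second in each group. At the lower end stood Nlrc5 without IFNγ, at 4.41 in control and 4.88 in DENR KO cells, and Erap1 with IFNγ, at 16.9 and 15.1. Tap1 moved from 6.11 to 125 in control and from 5.84 to 88.4 in DENR KO cells, which placed it above Tap2 in both genotypes only with IFNγ. Of 36 pairs of neighbours in these 4 orders, 30 were apart in all samples. The neighbours that overlapped were H2-D1 and Pdia3, Tap1 and Tapbpl, and Tapbpl and Erap1 in untreated control, Erap1 and Tap1 in untreated DENR KO, H2-K1 and Pdia3 in control with IFNγ, and Nlrc5 and Tapbpl in DENR KO with IFNγ.

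Among 9833 named protein-coding genes that averaged 100 normalized counts or more, the 3 with the pattern closest to H2-K1 over the 8 samples, by Euclidean distance of centred log2 levels, were Ifit2 (distance 0.133), Pnp (0.145) and Nnmt (0.178). Closest to Tap1 were Parp14 (0.604), Ciita (0.605) and Rtp4 (0.662). Closest to Nlrc5 were Parp9 (0.342), Dtx3l (0.401) and the immunoproteasome gene Psmb10 (0.411). The distances were thus larger for Tap1 than for H2-K1, whose own range over the samples was narrower.

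Of 48 further class I pathway genes tested in 5 lists, limma called 10 lower and 0 higher in DENR KO cells with IFNγ, where 2.25% of all tested genes were called lower and 1.8% higher. In untreated cells limma called 0 of the 48, with 4 at an unadjusted p under 0.05 and 0 by DESeq2 and by edgeR, where 0.15% of all tested genes were called lower and 0.429% higher. Of the immunoproteasome and its activator, which cut and feed the peptides, 3 of 8 fell with IFNγ, with a list median of -0.13. They were Psmb9 (log2 -0.35), Psme2 (-0.25) and Psmb10 (-0.23), and those that did not pass were the inducible Psmb8 (-0.11) and Psme1 (-0.14) and the constitutive subunits Psmb5 (0.08), Psmb6 (-0.02) and Psmb7 (-0.08). Psmb9 stood at 2545.2 and 2285.4 in control and 1938.7 and 1848.9 in DENR KO samples, which did not overlap (limma with Benjamini-Hochberg adjusted p = 0.0021). Psme2 and Psmb10 passed more narrowly (limma with Benjamini-Hochberg adjusted p = 0.029 and 0.025), and DESeq2 on the recovered reads called 2 of the 8. In response to IFNγ, 5 of 8 of this list rose in control cells by edgeR, beside 8.96% of all tested genes, Psmb9 the most (log2 3.80), and the constitutive subunits were not among them.

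Transcriptional regulators of class I genes had 4 of 16 members called lower by limma in DENR KO cells with IFNγ, beside 2.25% of all tested genes, and a median of -0.18. DESeq2 on the recovered reads called 2 of the 16. The 4 called by limma included the interferon regulatory factors Irf1, Irf2 and Irf9. Irf1 stood at 17207.8 and 16990.7 normalized counts in control and 11899.6 and 12009.3 in DENR KO samples with IFNγ, and at 1440.7 and 1372.6 against 1507.8 and 1427.7 untreated. Its treated groups were far apart and its untreated groups overlapped. Irf1 fell by 0.52 on the log2 scale with IFNγ (limma with Benjamini-Hochberg adjusted p = 1e-07), and its interaction estimate was -0.58 (limma with Benjamini-Hochberg adjusted p = 0.00018). The log2 differences of Irf2 and Irf9 were -0.32 and -0.28. The genes of the class I enhanceosome, Rfx5, Rfxap, Rfxank, Creb1, Nfya, Nfyb and Nfyc, the NF-κB genes Rela and Nfkb1, and the Polycomb genes Ezh2, Eed and Suz12 did not pass, with log2 differences from -0.48 (Nfya) to 0.05 (Suz12). Nfya varied widely within groups with IFNγ, at 244.9 and 111.8 in control and 156.5 and 89.9 in DENR KO samples (SE 0.635). Of the 16, 8 rose with IFNγ in control cells by edgeR, beside 8.96% of all tested genes.

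The list of ER chaperones and quality-control genes had 0 of 9 members called with IFNγ by limma, where 2.25% of all tested genes were called lower and 1.8% higher. At an unadjusted p under 0.05 the limma count was 2, DESeq2 and edgeR called 0, and the median was -0.05. The calreticulin gene Calr had the lowest value, -0.17 (limma with Benjamini-Hochberg adjusted p = 0.064). In control cells 1 of 9 rose with IFNγ by edgeR, beside 8.96% of all tested genes, the glycoprotein quality-control gene Uggt1 (log2 0.55). Of the list of further peptide-trimming genes limma called 1 of 7 lower, beside 2.25% of all tested genes. It was the leucine aminopeptidase gene Lap3, at 4959.3 and 4927.3 in control and 3864.5 and 3861.8 in DENR KO samples with IFNγ. These groups were far apart, with a log2 difference of -0.36 (limma with Benjamini-Hochberg adjusted p = 0.00022), while the list median was -0.02.

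Non-classical class I genes had 8 of 15 members above the filter on low values. Of the 8, limma called 2 lower in DENR KO cells with IFNγ, beside 2.25% of all tested genes, with a list median of -0.23. The 6 that did not pass ranged from -0.32 (H2-T24) to 0.87 (Cd1d1), and 5 of the 8 had the lower value in DENR KO cells. Cd1d1 was near the filter, at 10.2 and 11.1 in control and 16.7 and 24.4 in DENR KO samples. H2-T23, which encodes the Qa-1 molecule seen by NKG2A receptors, stood at 618.9 and 557.8 in control and 430.0 and 404.3 in DENR KO samples with IFNγ, against 98.6 and 74.5 in control and 146.2 and 119.9 in DENR KO samples untreated. The genotypes were apart under both treatments, in opposite order. Its log2 difference with IFNγ was -0.49 (limma with Benjamini-Hochberg adjusted p = 0.0024), and untreated 0.62, which did not pass (limma with Benjamini-Hochberg adjusted p = 0.21). The interaction estimate was -1.11 (limma with Benjamini-Hochberg adjusted p = 0.0065), larger in size than that of any of the 10 genes. H2-T22 also fell with IFNγ (-0.25) and in the interaction (-0.46, limma with Benjamini-Hochberg adjusted p = 0.023), where 0.429% of all tested genes were called lower. Reads of these genes can be shared with their close copies in the same region, so their values are uncertain.

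**Figure D5:**
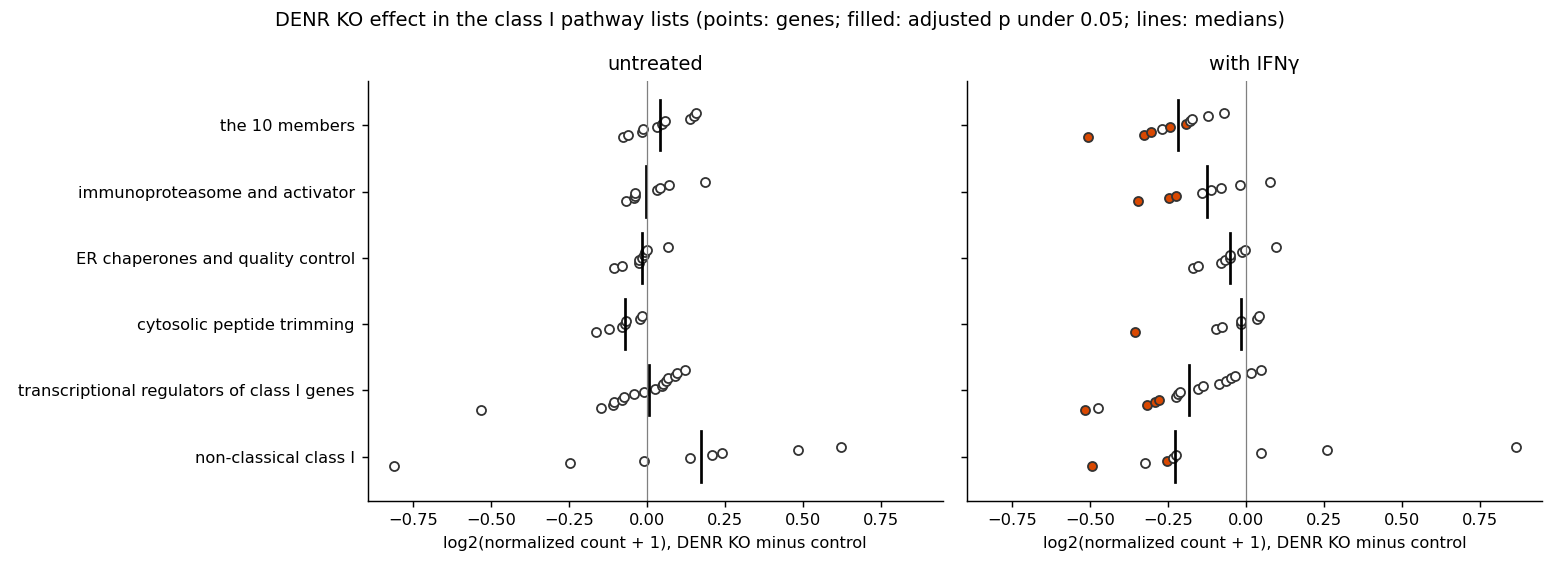
Points are genes, placed by the difference in log2(normalized count + 1) between DENR KO and control cells (horizontal axis), filled where the adjusted p was under 0.05, with a line for the median of the 10 members and of each of 5 pathway lists (vertical axis). With IFNγ (right) the medians of the members, regulators and non-classical genes are -0.22, -0.18 and -0.23, and no point is filled in untreated cells (left).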

How the data were processed

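RNA-seq was made from poly-A selected RNA of MC38 cells. The authors deposited 1 table for each treatment, and its values are a normalized signal, the read count of a gene divided by a size factor of the sample. Per the labels, the submitters' processing notes name HISAT2 2.0.5, StringTie 1.3.3b, featureCounts 1.5.0-p3, DESeq2 1.20.0 and mm9. The tables' coordinates are those of GRCm38, since 96.7% of 21739 shared gene IDs start where GENCODE places them. Strand handling is not given in the sources used here. The tables also hold the group means, fold changes and p-values of the authors' own comparison, which were not used. Whole reads were recovered, with 100.0% of values within 0.01 of a whole multiple in every sample. Depth was 17369020 to 18403790 reads on genes per sample. At low counts, counting error limits the precision.

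The value tested was log2(normalized count + 1), with limma 3.58.1 (trend and robust, R 4.3.3) over genes whose mean reached 10 across a table's 4 samples, that is 13928 genes with IFNγ and 13998 untreated. The interaction used 13998 of the 20432 genes in both tables. Adjustment was by Benjamini-Hochberg over all genes tested. Fold changes on this scale understate the change of low genes. The tests had been planned for either unit, and the signal form applied. DESeq2 1.42.0 and the quasi-likelihood test of edgeR 4.0.16 on the recovered reads were alternatives. The response to IFNγ crosses tables normalized separately, so it was computed as a ratio of means, with edgeR on reads scaled together as an alternative. Scripts were tested on simulated data.

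The members, the gene lists, the markers and the motifs were chosen with earlier results of these data known. Genes named are the 10 members, Denr, the called genes of largest rise and fall in each list with the range of the rest, and the 3 genes closest in pattern to H2-K1, Tap1 and Nlrc5. Other list genes called, Calr, the proteasome genes and the regulators that did not pass were named after their values had been seen. Some genes of the lists and markers are not reported here by name. Of the non-classical list, 3 names were not matched and were not analysed here. Of the 10 members, 8 overlap another gene, and reads shared with it could not be separated.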

Additional observations from a re-analysis of the deposited data

Results flagged for a closer look

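The DENR KO effect differed between treatments by the interaction test of limma for Nlrc5 (-0.484 on the log2 scale), Tap1 (-0.448) and Tapbp (-0.347). For Tapbpl, both DENR KO samples lay above control untreated, as for 20.4% of all tested genes, and below it with IFNγ, as for 20.8%. Its interaction estimate of -0.319 did not pass (limma with Benjamini-Hochberg adjusted p = 0.58). The reason for these differences was not tested.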

How the results depend on the processing

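With IFNγ, the 5 members called stayed 5 under the other pseudocounts, filters and centring, with DESeq2, with edgeR and in a fit over all 8 samples. A required log2 change beyond 0.5 left 1, and leaving out 1 sample gave 3 to 6. The calls over the whole table went from 565 to 345 with DESeq2 (223 lower, 122 higher) and to 215 beyond 0.5. Untreated, 0 members were called under every alternative run, and the calls over the whole table went from 81 to 50 with DESeq2, to 30 beyond 0.5 and to 35 to 91 with 1 sample left out. In the interaction, leaving out 1 sample gave 0 to 2 members in place of 3, and 37 to 93 genes of the whole table in place of 63. Of the 48 list genes, 10 of which limma called with IFNγ, DESeq2 called 7 and the block 22. The median response to IFNγ of the members in DENR KO cells went from 1.33 to 1.41 with edgeR, with or without the block. With 1 sample left out, differences that had not passed changed sign: untreated H2-K1 (-0.092 to 0.061), H2-D1 (-0.020 to 0.14), Tap1 (-0.15 to 0.024), Tap2 (-0.0067 to 0.10), Erap1 (-0.014 to 0.075) and Pdia3 (-0.057 to 0.034), and the interaction of Denr (-0.096 to 0.063). The lone sample of such a fit is assumed to vary like the others. Except where fewer samples or a stricter threshold entered, the cause was not tested.

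With the replicate number as a block, 9 members were called with IFNγ, the added ones being H2-D1, Tap2, Tapbpl and Erap1, and the whole-table counts were 1455 with IFNγ, 257 untreated and 102 in the interaction. The block left 0 members called untreated and 3 in the interaction. The labels name no shared day or culture for a number. Correlations of same-numbered deviations over 10415 genes were 0.22 between genotypes with IFNγ, -0.02 between genotypes untreated, 0.228 between treatments in control and 0.024 in DENR KO cells, so a pairing was not shown across the groups, and 2 samples a group do not settle it.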
